A study of Mus musculus with 56 samples.

Results

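The comparison described here is between 7 male and 7 female control mice, in RNA held by tagged ribosomes of gastrocnemius muscle. It rests on 14 of the 56 libraries of the series, taken by the genotype, sex and RNA type in their labels. The comparison and the gene lists below were chosen with earlier results of these data known. All mice were 20 to 22 weeks old and carried ribosomal protein L10A fused to GFP, switched on by Cre recombinase under the Mlc1f promoter, which drives expression in skeletal muscle fibres. The labelled knockouts (7 males and 7 females) also carried a floxed Elavl1, the gene of the RNA-binding protein HuR, and the controls are not described as carrying it. Each labelled number of a sex and genotype has a ribosomal library and a total library of the whole muscle homogenate, both made from 500 ng of RNA with a kit that reads the 3′ end of transcripts. The labels do not name the strain or the floxed exons, and the 3′ tags of Elavl1 do not check the knockout, so its groups are called by their labels. Genes of the X and Y chromosomes are left out of every count. Differences are log2 of male over female, so a positive value is higher in males. A gene is said to differ, rise or fall where its adjusted p (edgeR's quasi-likelihood test, Benjamini-Hochberg over all genes tested) was under 0.05.

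Skeletal muscle of male mice is larger than that of females, and androgens and the male pattern of growth hormone release both act on it. The androgen receptor is a transcription factor of the fibre nuclei, and genes of polyamine synthesis are among its known targets in muscle. Growth hormone acts through the JAK2 kinase and the transcription factor STAT5, which switches on feedback inhibitors such as Cish and the growth factor gene Igf1. Fibres themselves come in slow and fast types with their own myosin, troponin and calcium-handling genes, and the mouse gastrocnemius is made mostly of fast ones.

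Depth was 422756 to 3058801 counts in female controls (median 1589142) and 704646 to 2846041 in males (median 2000434). Female controls 18 and 19 and male control 20 stood apart. They had 9.31, 10 and 9.45% of reads outside genes, against 4.82 to 6.08% in the other 11 libraries. Their shares of counts from all mitochondrially encoded genes, not mRNA alone, were the largest (1.3, 1.06 and 1.5%). Defining genes of fast fibres were abundant in every library, with Myh4 at 6374 to 24070 CPM (read counts scaled to a common library size with TMM factors). Of markers of other cells, 12 endothelial genes summed to 71.9 to 161.8 CPM and 12 immune genes to 26 to 68.2 CPM over all 14 libraries. In 20 matrix and fibroblast genes 0 of the 17 tested differed, and the sums were 460.7 to 686.4 CPM in females and 400.4 to 711.5 in males.

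Of 8715 autosomal genes tested 664 differed between male and female controls, which is 7.62%. Of these 376 were higher in males (4.31% of genes tested) and 288 lower (3.3%). The median difference was 0.73 among the higher genes and −0.68 among the lower ones, and −0.01 over all autosomal genes. At least a doubling was seen in 102 genes and at least a halving in 70. For 200 genes (2.29%) the 7 male and 7 female libraries did not overlap in CPM, with males above all females in 129 (1.48%) and below all in 71 (0.815%). The share of genes that differed was between 5.8 and 10% on each of the 19 autosomes. Without male control 20 the count was 1240 of 8907 tested (583 higher and 657 lower). Without female control 15 it was 1029. Without male control 20 and female controls 18 and 19 together it was 754 (432 higher and 322 lower), of which 583 were among the 664. Counts from gene lists below, which were chosen with earlier results of these data known, are to be read beside these shares over all genes. Those without male control 20 stand beside 583 higher and 657 lower of 8907.

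**Figure D1:**
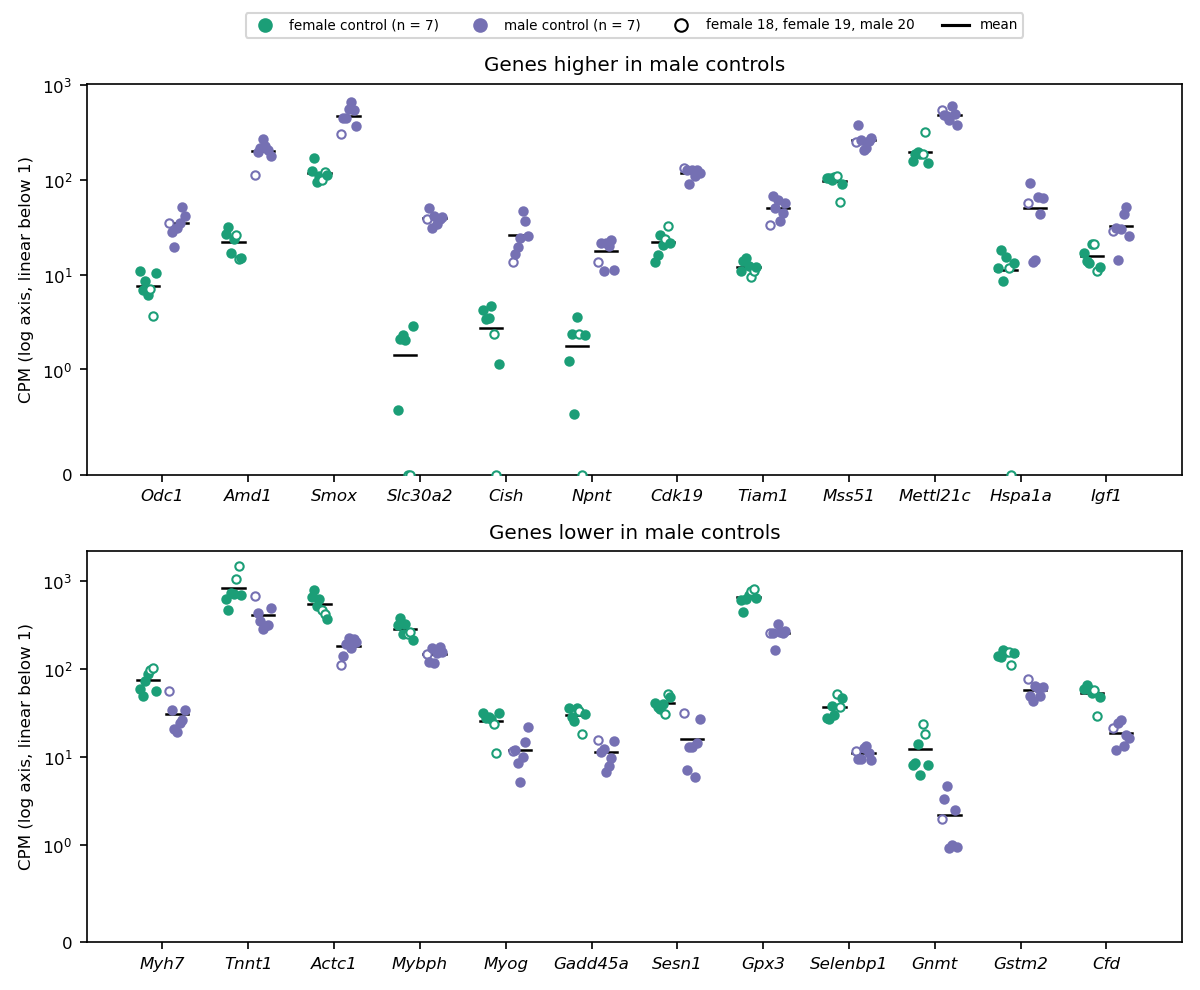
Level in CPM (log axis, linear below 1) of 12 genes higher and 12 genes lower in male controls, with 1 point per ribosomal library and a bar at the mean of 7; open points are female controls 18 and 19 and male control 20. Amd1 and Slc30a2 show a wide gap between the sexes in all 14 libraries, while Igf1, Hspa1a and Tnnt1 overlap.

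Polyamines are small charged molecules that cells need for growth, and 4 of the 14 tested genes of their metabolism were higher in males, against 0 lower. Odc1 encodes ornithine decarboxylase, which makes putrescine in the first step. Its level was 3.67 to 11 CPM in female controls (median 7.1) and 19.8 to 51.5 in males (median 35.1), a difference of 2.07 (SE 0.24, adjusted p = 1.03e-07). Amd1 encodes S-adenosylmethionine decarboxylase, which supplies the aminopropyl groups of spermidine and spermine. It stood at 14.7 to 31.7 CPM in females (median 23.7) and at 113.1 to 272.3 in males (median 207.9), a difference of 3.15 (SE 0.18, adjusted p = 4.05e-15). Smox encodes spermine oxidase, which turns spermine back into spermidine. Its range was 94.2 to 169.2 CPM in females (median 112.9) and 304.1 to 658.1 in males (median 450.6), a difference of 1.99 (SE 0.19, adjusted p = 8.6e-10). For all of these genes each male library lay above each female library. Amd2 differed as Amd1 did (3.15, SE 0.19), from a mean of 9.54 CPM in females to 85.3 in males. The 2 genes are near-identical copies, so reads may be split or exchanged between them and they are not separate evidence.

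The genes around these steps, chosen after their values were seen, did not pass the test. The spermidine synthase gene Srm was at a mean of 9.24 CPM in females and 11.3 in males (0.14, adjusted p = 0.781). The antizyme genes Oaz1 and Oaz2, whose products hold ornithine decarboxylase in check, stood at −0.12 and 0.14, and the antizyme inhibitor gene Azin1 at 0.22 (adjusted p = 0.466). Paox, a polyamine oxidase of peroxisomes, was at −0.47 (adjusted p = 0.162), but passed by limma-voom (−0.51, adjusted p = 0.0472). Eif5a, the translation factor that carries a residue made from spermidine, was at −0.05. The median of the list was 0.16, with 4 members past the test. In total RNA of controls 6 of the 14 were higher in males and 0 lower, beside 4.83% higher of all genes tested there.

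The largest rises by the naming rule outside this pathway were in genes of varied function. Slc30a2 encodes a zinc transporter of vesicles. It was at 0 to 2.87 CPM in females (median 2.06) and at 31.4 to 50.1 in males (median 39.1), a difference of 4.34 (SE 0.26, adjusted p = 4.05e-15). The outer dense fibre protein gene Odf3l2 was at 2.31 to 7.34 CPM in females and 36.7 to 79.9 in males (3.9, SE 0.24). Npnt, which encodes the matrix protein nephronectin, was at 0 to 3.6 CPM in females and 11.1 to 23.5 in males (3.08, SE 0.31). Actr3b, a subunit of the actin-branching complex, rose by 2.58, Cdk19, a kinase of the Mediator complex, by 2.53, and the LIM protein gene Crip3 by 2.56. Cdk19 was even within each sex, at 13.5 to 33 CPM in females and 89.5 to 132.6 in males.

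Among the other large rises were those of Mgst1, a glutathione transferase of membranes (2.5, mean 7.79 to 49.9 CPM), and Gadl1, a decarboxylase of amino acids such as cysteine sulfinate (2.4, 5.2 to 21.8 CPM). The transcription factor gene Tfcp2l1 stood 2.19 higher, at 4.29 to 8.67 CPM in females and 21.4 to 34.8 in males. Tiam1, an activator of the GTPase Rac1, was at 9.47 to 15 CPM in females and 33.1 to 67.1 in males (2.01, SE 0.2), and Tmem100 at 11.6 to 25.7 and 48.5 to 73.6 CPM (1.97, SE 0.18). In all of these but Gadl1 the male libraries lay above all female ones. The secreted nuclease gene Dnase1 was at 0 to 2.37 CPM in females and 5.85 to 15.7 in males (4.07, SE 0.47). Dnase1 is strongly expressed in kidney, and the 14 kidney markers summed to 2.37 to 14.7 CPM in females and 2.84 to 27.3 in males, male control 20 being the highest and the other males at 2.84 to 8.35, with Nphs1, Slc22a6, Cubn and Slc12a3 at 0 counts in every control library. The transporter gene Slc15a5, chosen after its values were seen because its mean fell under the level the rule asks for, was at 0 CPM in 6 of 7 female libraries and at 3.49 to 13.4 in males.

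Of 16 tested genes of the growth hormone and IGF axis 4 were higher in males and 0 lower, and the list's median was 0.11. Cish, a feedback inhibitor of STAT5 signalling, was at 0 to 4.63 CPM in females (median 3.44) and 13.7 to 46.6 in males (median 24.4), with no overlap (3.03, SE 0.41, adjusted p = 1.82e-06). Igf1, which encodes insulin-like growth factor 1, was at 11 to 21.3 CPM in females (median 14) and 14.2 to 51.9 in males (median 30.2), and 1 male library lay within the female range (1.05, SE 0.26, adjusted p = 0.00846). The binding protein gene Igfbp5 stood at 153 to 347.9 CPM in females and 289.4 to 679.6 in males, with some overlap (1.07, SE 0.21). Bcl6, a gene of the same list that encodes a repressor, was at 127.7 to 201.1 CPM in females and 157.9 to 237.3 in males (0.51, SE 0.12, adjusted p = 0.00486). Socs2, another feedback inhibitor of STAT5 signalling, spread from 9.47 to 112.9 CPM within females and did not pass (0.06, adjusted p = 0.949). The receptor gene Ghr (0.32, adjusted p = 0.16) and the gene of the transcription factor itself, Stat5b (−0.26, adjusted p = 0.111), did not pass either. By limma-voom both passed, Ghr at 0.41 (adjusted p = 0.0121) and Stat5b at −0.24 (adjusted p = 0.0356). Ghr passed also without female control 15 (0.46, adjusted p = 0.0245).

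The promoters of these 4 genes were searched for TTCNNNGAA, the core of the site that STAT5 binds, in windows of 300 bases (250 before the start site and 50 after) from RefSeq on GRCm38.p6. The motif reads the same on both strands. Cish and Bcl6 held it and Igf1 and Igfbp5 did not, and 8.3% of all 32851 windows of that length held it. The stretches with a match are shown because they hold the motif, which is in capitals, and each is 30 bases long.
Cish, chr9:107296654-107296683, plus strand, 2 matches within the first 20 transcribed bases: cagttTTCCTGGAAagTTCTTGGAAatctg
Bcl6, chr16:23988951-23988980, minus strand, first start site, bases −118 to −110: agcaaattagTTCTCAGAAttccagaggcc
Bcl6, chr16:23981432-23981461, minus strand, second start site, bases −168 to −160: aggccgcggcTTCCTGGAAagttacttctc
Bcl6, chr16:23981386-23981415, minus strand, second start site, bases −122 to −114: ggcaggagtgTTCTGTGAAatccttagagc
Bcl6, chr16:23981352-23981381, minus strand, second start site, bases −88 to −80: atcgactacgTTCCGGGAAtgagagggctg
A match describes the letters only, and these data do not measure binding.

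Heat shock proteins refold or hold damaged proteins, and 4 of 19 tested genes were higher in males and 0 lower (median 0.16), and 2 without female controls 18 and 19. Hspa1b, which encodes an inducible HSP70, was at 3.67 to 9.47 CPM in females (median 6.74) and 11.1 to 56.7 in males (median 39.7), with no overlap (2.27, SE 0.35, adjusted p = 2.54e-05). Its near-identical copy Hspa1a stood at 0 to 18.2 CPM in females and 13.7 to 93.6 in males (1.88, SE 0.35), and reads may be shared between the copies. Male libraries spread widely for both. The small heat shock gene Hspb1 (0.92, adjusted p = 0.0321) and the co-chaperone gene Dnajb1 (0.97, adjusted p = 0.0362) passed as well. Both lost the call when any 1 of 6 of the 14 control libraries was left out (adjusted p up to 0.106 and 0.0976). The constitutive Hspa8 was at 0.31 (adjusted p = 0.0982), but passed by limma-voom (0.29, adjusted p = 0.0446). Hspd1 and Hspe1 of the mitochondrial chaperonin were at −0.13 and −0.04. In the endoplasmic reticulum 2 of 16 chaperone genes rose, Pdia6 (0.49, males above all females) and Hspa5 (0.45). Leaving out male control 20, its highest library, took Hspa5 to 0.32 (adjusted p = 0.0629), and it lost the call also without any 1 of 5 others.

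Of 14 slow fibre genes tested 5 fell, 1 rose and 8 did not pass, and the median was −0.4 against −0.01 over all genes. Without male control 20 the count was 8 lower and 1 higher. Myh7, which encodes slow myosin heavy chain, was at 48.6 to 102.8 CPM in females (median 73.4) and 18.9 to 56.5 in males (median 26), and only male control 20 reached the female range (−1.32, SE 0.29, adjusted p = 0.00252). The troponin genes of slow fibres went the same way, with Tnnt1 at a mean of 820.8 CPM in females and 405.1 in males (−1.01, SE 0.22), Tnni1 at 118 and 66.3 (−0.77, SE 0.16) and Tnnc1 at 515.9 and 305.7 (−0.75, SE 0.17). Myl2, a light chain of slow myosin, stood at −0.68 (adjusted p = 0.0256) and lost the call when any 1 of 6 libraries was left out. Ankrd2, named with Myl2 after their values were seen and a stretch-responsive gene that slow fibres also express, moved the other way (1.15, SE 0.26), from 77.1 to 155.3 CPM in females to 113 to 544.6 in males. The related stretch gene Csrp3 stood at 0.85 and did not pass (adjusted p = 0.0799), but passed in 5 of 24 alternatives, among them those without male control 21, 22 or 23 (adjusted p = 0.04, 0.0226 and 0.0311).

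The share of Myh7 in the counts of the 4 adult myosin heavy chain genes does not depend on how libraries are scaled. It was 0.54% ± 0.111 (SD, n = 7) in females, with a range of 0.405 to 0.734%, and 0.297% ± 0.0523 in males, with a range of 0.227 to 0.398%, so the groups did not overlap. Myh4, the fastest type, made up 92.3% ± 1.97 in females and 93.4% ± 1.28 in males. Myh1 made up 3.11% ± 0.542 and 2.91% ± 0.513. Myh2 made up 4.09% ± 1.41 in females (2.33 to 6.07%) and 3.43% ± 0.794 in males (2.03 to 4.46%), so its shares overlapped.
Of 17 fast fibre genes 0 passed the test, 3 of the myosins among them. Myh2 stood at −0.67 (adjusted p = 0.0547), with each male library (234.6 to 415.2 CPM) under each female one (450.3 to 591 CPM), and it passed in 8 of 24 alternatives, such as DESeq2 (−0.66, adjusted p = 0.0477), the 14 libraries alone (adjusted p = 0.00329) and without male control 20 (−0.72, adjusted p = 0.0265). Myh1 stood at −0.54 (adjusted p = 0.137) and passed in 5 of 24 alternatives, among them without male control 20 (−0.70, adjusted p = 0.0251). The 24 hold that same run both as a planned exclusion and as a single-library omission. Each copy is counted in the 8 passes of Myh2 and the 5 of Myh1. Myh4 stood at −0.49 (adjusted p = 0.278). Myh4 was 19500 CPM in male control 20 against 6374 to 10430 in the other males, and it passed without that library (−0.75, adjusted p = 0.0363). The fast fibre list had a median of −0.38 with 0 calls, a median of −0.62 with 6 lower without male control 20, and a median of −0.14 with 0 calls without that library and female controls 18 and 19. In a ribosomal library of the whole muscle, fewer slow fibres and less slow mRNA per fibre cannot be told apart.

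**Figure D2:**
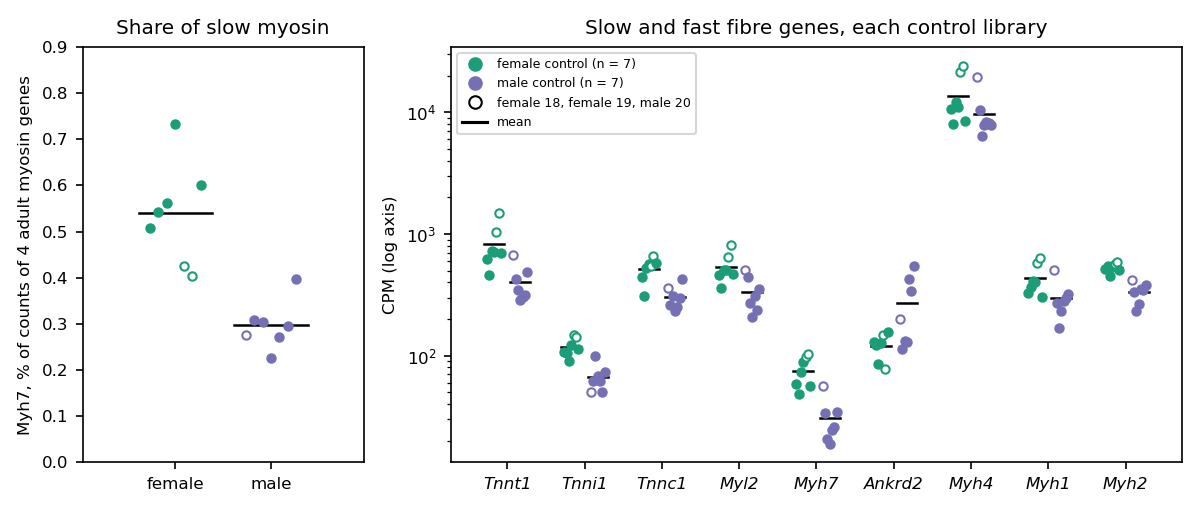
Left: Myh7 as a percent of the counts of Myh4, Myh1, Myh2 and Myh7 in each control ribosomal library, axis from 0. Right: CPM (log axis) of slow genes, Ankrd2 and 3 fast myosin genes; points are libraries, bars are means, and open points are female controls 18 and 19 and male control 20. The Myh7 shares of 7 males (0.227 to 0.398%) all lie under those of 7 females (0.405 to 0.734%), while the Myh4 levels of the open points are the highest in each sex.

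Brakes on growth and the cell cycle split. Of 16 genes that p53 controls or that restrain the cycle 4 were lower in males and 3 higher. Gadd45a, a stress sensor that muscle switches on when it wastes, was at 18.4 to 36.1 CPM in females (median 30.4) and 6.74 to 15.6 in males (median 11.4), with no overlap (−1.51, SE 0.18, adjusted p = 1.16e-07). Sesn1, an inhibitor of mTORC1, was at 30.8 to 51.4 CPM in females and 5.95 to 31.2 in males (−1.48, SE 0.22), and its lowest female and highest male libraries just overlapped. Cdkn1a, which encodes the cycle inhibitor p21 and was named after its values were seen, was at 227.6 to 361.4 CPM in females and 56.5 to 192.4 in males (−1.27, SE 0.21). Gadd45b fell by 1.44 on the log2 scale. Its relative Gadd45g went the other way, from 45.8 to 91.8 CPM in females to 93.6 to 175.3 in males, with no overlap (1.17, SE 0.17). The other higher genes of the list, named after their values were seen, were Cdkn1c (0.91, adjusted p = 0.00164) and Trp53inp2 (0.5, adjusted p = 0.0144).

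Of 19 tested genes of muscle protein breakdown 5 were lower in males and 0 higher, with a median of −0.2. The lysosomal protease gene Ctsl was at 110.1 to 187 CPM in females and 67.6 to 97.5 in males, with no overlap (−0.73, SE 0.13, adjusted p = 0.000268). Foxo3, a transcription factor that drives breakdown genes, was at a mean of 31.4 CPM in females and 20.8 in males (−0.62, SE 0.15, adjusted p = 0.00763). The calls of the 3 ubiquitin ligase genes were lost without female control 18. Trim63, which encodes MuRF1, stood at −0.84 (adjusted p = 0.0197) and at −0.51 (adjusted p = 0.115) without that library, and at −0.75 (adjusted p = 0.0561) when male control 25 was left out. Fbxo31 went from −0.68 (adjusted p = 0.0139) to −0.52 (adjusted p = 0.0563) without female control 18. Fbxo32, which encodes atrogin-1, was at 2724 CPM in female control 18 against 508.4 to 1352 in the other females, and went from −0.7 (adjusted p = 0.0447) to −0.36 (adjusted p = 0.241) without it. Fbxo32 also lost the call without any 1 of 8 other libraries. Of 29 proteasome genes 1 rose and 2 fell, beside 4.31 and 3.3% of all genes tested. Without male control 20, 11 proteasome genes and 8 of the list of breakdown genes were lower. In that setting 657 of all 8907 autosomal genes tested were lower.

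Of 24 antioxidant genes tested 3 were lower in males and 2 higher, and the median was 0.06. Gpx3, a secreted glutathione peroxidase, was at 445.2 to 796.6 CPM in females (median 630.3) and 163.1 to 323.3 in males (median 257.3), with no overlap (−1.35, SE 0.15, adjusted p = 6.48e-08). The glutathione transferase gene Gstm2 was at 110.1 to 161.8 CPM in females and 42.4 to 76 in males, with no overlap (−1.37, SE 0.12, adjusted p = 1.07e-10). The selenium-binding protein gene Selenbp1 was at 26.7 to 52.1 CPM in females and 9.29 to 13.4 in males, again with no overlap (−1.69, SE 0.19). Gnmt, the methyltransferase that uses up S-adenosylmethionine on glycine, was at 6.18 to 23.7 CPM in females and 0.963 to 4.65 in males (−2.09, SE 0.34). Gnmt is strongly expressed in liver, and 16 liver markers summed to 4.58 to 21.3 CPM in females and 1.74 to 6.45 in males, with Serpina1a and Mup20 at 0, and what part this has in the value was not tested. The third lower gene of the list was Gsr, which encodes glutathione reductase (−0.69). One of the higher genes, Gclm (0.54, adjusted p = 0.0233), encodes a subunit of the enzyme that begins glutathione synthesis, and it did not pass without female control 16, female control 17 or male control 25 (adjusted p up to 0.0663).

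The main fuel pathways moved little. In glycolysis 0 of 15 genes passed, in the TCA cycle 0 of 18, and in nuclear-encoded oxidative phosphorylation 1 of 46, Ndufb5 of complex I (0.56, and 0.44 with adjusted p = 0.0827 without female controls 18 and 19). Of 20 fatty acid oxidation genes 2 were lower, the hydratase gene Echs1 (−0.42, all males under all females) and Etfa of the electron transfer flavoprotein (−0.46), and with no filter on low counts both lost the call (adjusted p = 0.121 and 0.0783). Of 13 glycogen genes 3 were lower, among them Ppp1r3d, which targets a phosphatase to glycogen (−1.05, SE 0.22, mean 11.8 to 5.59 CPM), and Stbd1, which tethers glycogen (−0.68). The third, Ugp2 (−0.33, adjusted p = 0.0395), lost the call when any 1 of 8 libraries was left out. Without male control 20 the counts were 3 of 18 higher for the TCA cycle and 9 higher and 2 lower of 46 for oxidative phosphorylation. In lipid synthesis Gpam (−0.36) and the desaturase gene Scd1 (−0.9) passed at adjusted p = 0.0327 and 0.0446, and both lost the call when single libraries were left out, Gpam for 7 and Scd1 for 10 of 14. The nuclear receptor gene Rxrg was higher in males (0.56, adjusted p = 0.0138; 0.44, adjusted p = 0.0548 without female controls 18 and 19), 1 of 13 genes of the PGC-1, ERR and PPAR regulators.

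Of 16 genes of insulin signalling and glucose uptake 2 rose and 1 fell, and of 18 amino acid and ATF4 genes 1 rose and 3 fell. The glucose transporter gene Slc2a3 was at 0 to 4.73 CPM in females and 8.04 to 21.4 in males (2.28, SE 0.45). Grb10, an adaptor that dampens insulin signalling, was at 42.6 to 64 CPM in females and 13.7 to 35.3 in males (−0.91, SE 0.2). The phosphatase gene Ptpn1 (0.48, adjusted p = 0.0475) lost the call without any 1 of 10 libraries. The amino acid transporter gene Slc38a2 was at 78 to 106.6 CPM in females and 136.2 to 214.4 in males, with no overlap (0.8, SE 0.14). Glul, which encodes glutamine synthetase, was lower in males (−0.57, SE 0.13, mean 477.7 to 321.1 CPM). The branched-chain genes Bcat2 (−0.75) and Bckdha (−0.39) passed at adjusted p = 0.0361 and 0.0478, and lost the call without any 1 of 6 and of 10 libraries.

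Adenylate kinase 4 of mitochondria, encoded by Ak4, fell by 1.79 on the log2 scale, from 14.7 to 35.3 CPM in females to 4.96 to 11.6 in males. The fatty acid hydroxylase gene Cyp4f39 stood at −1.73 (SE 0.36), with overlap. Of 10 iron genes 3 were higher and 0 lower: the iron transporter gene Slc11a2 (0.96, SE 0.16), the transferrin receptor gene Tfrc (0.71, SE 0.16) and the ferritin gene Fth1 (0.85, SE 0.2). Their male and female libraries overlapped.

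Actc1, the cardiac actin that fetal and regenerating fibres express, was at 369.6 to 785.4 CPM in females (median 519.6) and 111.1 to 226.3 in males (median 190.4), with no overlap (−1.6, SE 0.21, adjusted p = 1.73e-06). Mybph, which encodes a myosin-binding protein, was at 211.4 to 380.7 CPM in females and 114.9 to 178.1 in males (−0.94, SE 0.14). Myog, the differentiation factor myogenin, stood at −1.25 (SE 0.23, mean 25.7 to 11.9 CPM), with overlap. Chrna9, a nicotinic receptor subunit, showed the largest fall by the naming rule, from 6.35 to 18.9 CPM in females to 0 to 5.85 in males (−2.88, SE 0.39).

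Musk, which encodes the receptor kinase that organises the neuromuscular junction, was higher (1.78, SE 0.24, mean 11.6 to 32.7 CPM). Of 13 junction genes it was the only one higher, against 1 lower (Prkar1a, −0.48). The receptor subunit genes Chrna1, Chrnb1 and Chrne were at −0.06, 0.35 and 0.28 without a call, and Chrnb1 passed by limma-voom (0.33, adjusted p = 0.0431). Of 20 myogenic transcription factor genes 4 rose and 1, Myog, fell. Eya4, a cofactor of homeobox factors that drive fast fibre genes, was at 28.1 to 54.5 CPM in females and 66.3 to 83.2 in males (0.78, SE 0.13), and Mef2c at 817.6 to 975.2 and 1009 to 1498 CPM (0.45, SE 0.11). Neither pair of groups overlapped. Markers of satellite cells did not pass (0 of 4 tested), with Pax7 at −0.73 (adjusted p = 0.186).

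Among 15 genes of secreted muscle factors 3 were lower in males and 1 higher. Il15, the cytokine interleukin 15, was at 11 to 33.8 CPM in females (median 26) and 7.06 to 14.2 in males (median 9.75), and only the lowest female library reached the male range (−1.43, SE 0.18, adjusted p = 6.38e-07). Ostn, which encodes musclin, was at 33.1 to 108.9 CPM in females and 18.6 to 29.3 in males, with no overlap (−1.46, SE 0.27). Bdnf, the neurotrophin gene, stood at −1.39 (SE 0.29, mean 10.2 to 4.07 CPM). Gdf11, a TGF-beta family ligand, was at 4.01 to 8.46 CPM in females and 24.4 to 52.6 in males (2.2, SE 0.26). The related inhibitor of muscle growth Mstn was at −0.22 and did not pass (adjusted p = 0.749).

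Mss51, which encodes a mitochondrial protein specific to skeletal muscle, was at 58.7 to 108.9 CPM in females (median 105.4) and 207.7 to 376.8 in males (median 254.9), with no overlap (1.42, SE 0.16, adjusted p = 4.47e-08). It was the 1 gene that passed of 22 tested in a list of the triad and calcium handling. The protein methyltransferase genes Mettl21c and Mettl21e, both chosen after their values were seen, moved apart: Mettl21c was at 150.7 to 323 CPM in females and 380.8 to 604.6 in males (1.33, SE 0.15), and Mettl21e at 13.2 to 33 and 1.47 to 19.5 CPM (−1.35, SE 0.36). The chloride channel gene Clcn1, whose product steadies the fibre membrane, was at 80.8 to 111.2 CPM in females and 126.6 to 170 in males (0.67, SE 0.12). The potassium channel gene Kcnj2 stood at −0.74 (SE 0.17). Sgca, a sarcoglycan of the dystrophin complex, was higher in males with no overlap (0.66, SE 0.12). Of 29 scaffold and costamere genes 3 rose and 1 fell, and 6 rose and 4 fell without male control 20.

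Of 16 genes that sex steroids or glucocorticoids are known to control in muscle and that were tested, 2 were higher in males and 0 lower, with a median of −0.02. The kinase gene Mylk4 was at 373.3 to 701.1 CPM in females and 681.5 to 1051 in males (0.73, SE 0.16). The metallothionein gene Mt2 was at 624.8 CPM in male control 27 against 11.9 to 186.5 in the other males and 19.1 to 63.6 in females. Its difference of 2.03 (adjusted p = 0.0192) became 0.96 (adjusted p = 0.202) without that library and 1.89 (adjusted p = 0.0523) without female control 16.

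Elavl1 itself was lower in ribosomal RNA of male controls, at 45.1 to 66.1 CPM against 65.6 to 107.1 in females (−0.63, SE 0.15, adjusted p = 0.00438). In total RNA of the same groups it stood at 0.04 (adjusted p = 0.89), and the test of the difference between RNA types gave an adjusted p of 0.217. Of 21 tested genes of mRNA-binding proteins 3 were lower and 0 higher. The others were Srsf5, a splicing factor (−0.71, SE 0.16), and Mbnl1, a splicing regulator (−0.38, adjusted p = 0.0472), which lost the call without any 1 of 11 libraries. Of 18 clock genes Bhlhe41 (0.8, SE 0.14) and Hlf (0.6, adjusted p = 0.0291) were higher and Bhlhe40 lower (−0.46, SE 0.1). Hlf lost the call without any 1 of 7 libraries and Bhlhe40 with no filter on low counts (adjusted p = 0.0624). The hour at which muscles were taken is not given in the sources used here.

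Of 6 tested adipocyte genes 2 were lower in males and 0 higher, with a median of −0.68. Cfd, the adipsin gene, was at 29.4 to 66.1 CPM in females (median 56.8) and 11.8 to 26.3 in males (median 17.8), with no overlap (−1.55, SE 0.19, adjusted p = 3.1e-07). Car3, a carbonic anhydrase of fat and of slow fibres, stood at −0.62 (SE 0.12, mean 3125 to 2032 CPM). The 8 listed genes together, of which Car3 makes up most, summed to 2744 to 3695 CPM in females and 1753 to 2772 in males. Fabp4, Plin1, Cidec and Adipoq, which define fat cells, were at −0.62, −0.75, −0.91 and −0.34, and none passed. Fabp4 passed in 3 of 24 alternatives, such as the 14 libraries alone (adjusted p = 0.0289), Cidec in 4 of 24, such as limma-voom (adjusted p = 0.00979), and Plin1 and Adipoq in 0. What part RNA of fat cells has in these values was not tested. The tendon gene Thbs4 was at 17.8 to 33.1 CPM in females and 38.7 to 75.3 in males, with no overlap (1.35, SE 0.21), while the 8 tendon genes summed to 42.4 to 69.8 and 63.7 to 98.3 CPM and the other 2 tested did not pass.

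Other falls named by the rule were those of Zfp385a, a zinc finger gene (−2.16, SE 0.31, mean 11.4 to 1.93 CPM), the rhophilin gene Rhpn2 (−1.98, SE 0.28), Aebp1, a matrix-associated carboxypeptidase-like protein gene (−1.56, SE 0.24, mean 225.8 to 73.2 CPM), Mylip, a ubiquitin ligase of the LDL receptor (−1.46, SE 0.19), and the zinc finger gene Zfp503 (−1.17, SE 0.16). All but Rhpn2 had no overlap between the sexes.

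**Figure D3:**
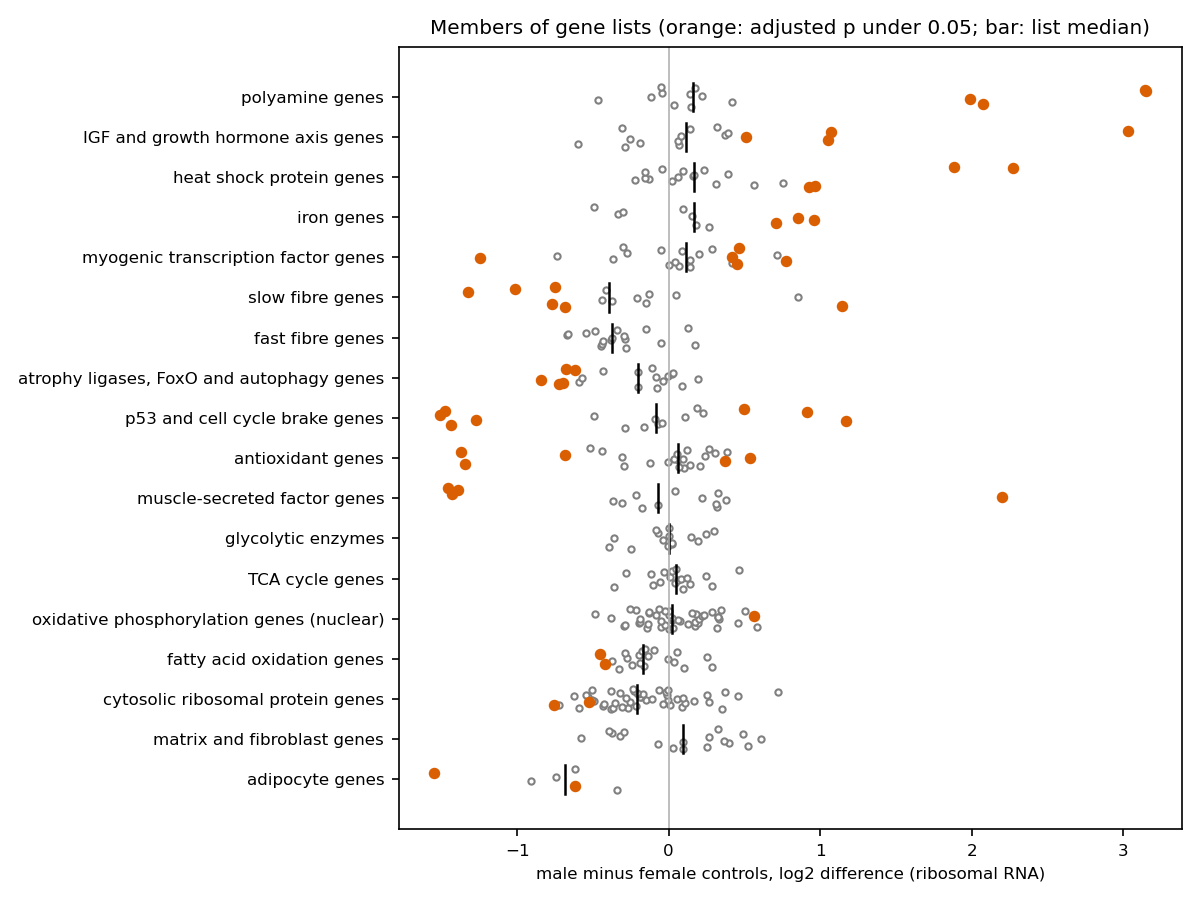
Male minus female log2 difference in ribosomal RNA of controls for every tested member of 18 gene lists; filled orange points passed the test, open points did not, and the black bar is the median of the list. A few members lie far out in the polyamine, growth hormone, heat shock and secreted-factor lists while the bulk sits near 0. Most points of the slow fibre and fast fibre lists and all points of the adipocyte list lie below 0. The medians of the protein breakdown (−0.2) and ribosomal protein (−0.21) lists are also among those below 0.

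The labelled knockouts are other mice in which the same sex difference can be read. There 2937 of 8715 genes differed between males and females (33.7%), 1447 higher in males (16.6%) and 1490 lower (17.1%). Of the 376 genes higher in male controls 203 were also higher in male knockouts (54% of the control list and 14% of the knockout list), and 5 were lower. Of the 288 lower genes 134 were also lower (46.5% and 8.99%), and 9 were higher. Counts from all mitochondrially encoded genes, not mRNA alone, made up 1.52 to 4.77% in female labelled knockout libraries and 0.3 to 3.01% in male ones. Of 17 matrix and fibroblast genes 16 were lower in male knockouts. What part this has in the counts and in the values of single genes was not tested.

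Amd1 (3.2), Cish (3.1), Smox (2.26), Hspa1b (2.26) and Chrna9 (−3.36) had these sex differences in knockouts, and the difference from controls did not pass for any of the 5. Csrp3, named after its values were seen, stood at 0.85 in controls and −0.82 in knockouts (adjusted p of the difference 0.0276). The difference between the genotypes itself passed in 297 genes (3.41%), a test that contains the same control libraries. Odc1 was among them: it stood at 2.07 in controls and 0.41 in knockouts (adjusted p of the difference 0.0149). Npnt went from 3.08 to 1.02 (adjusted p = 0.0287), Slc2a3 from 2.28 to −0.59 (adjusted p = 0.0201) and Mss51 from 1.42 to 0.62 (adjusted p = 0.0317). Igf1 was higher in male controls and lower in male knockouts (1.05 and −0.71, adjusted p = 0.00767), as was Thbs4 (1.35 and −0.6, adjusted p = 0.000771). Gadd45b (−1.44 and 0.08), Mylip (−1.46 and −0.06) and Mybph (−0.94 and 0.02) differed by sex in controls and stood near 0 in knockouts, with adjusted p of 0.00563, 0.00563 and 0.00651. For Slc30a2 (4.34 and 2.49) the difference between genotypes did not pass (adjusted p = 0.0559). Myh7 stood at −1.32 and −2.53 (adjusted p of the difference 0.0783). For Elavl1 the differences were −0.63 and −0.62.

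**Figure D4:**
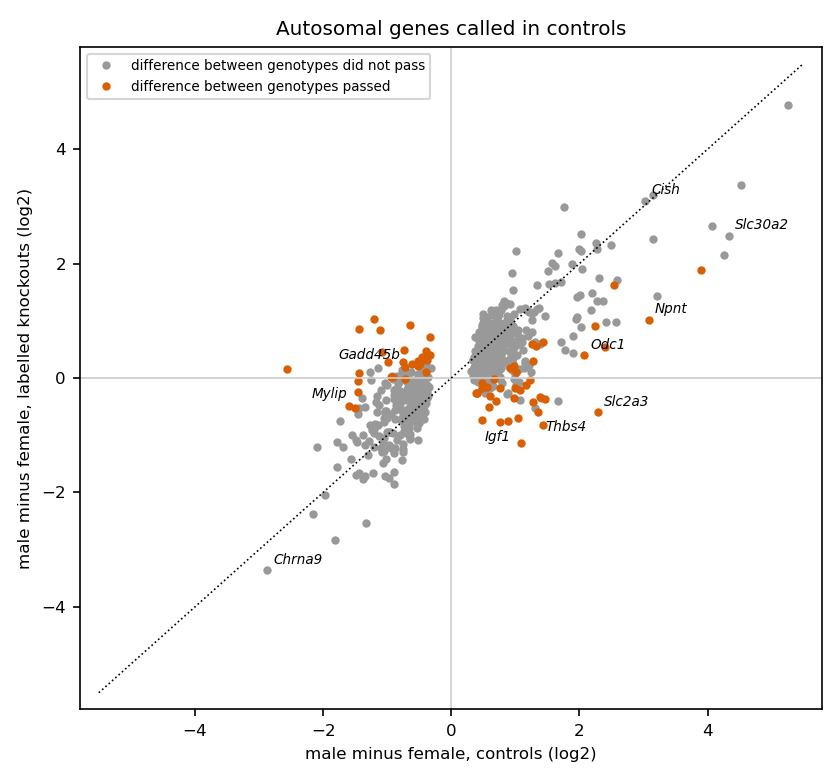
Sex difference (male minus female, log2) in labelled knockouts against that in controls for the 664 autosomal genes that differed in controls, in ribosomal RNA; the dotted line marks equal differences and orange points are genes whose difference between genotypes passed the test. Cish and Chrna9 lie near the line, and Slc2a3, Igf1 and Thbs4 lie on opposite sides of 0 in the 2 genotypes.

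Total RNA libraries under the same labelled numbers give the level in the whole muscle. Of 12226 autosomal genes tested there 1072 differed by sex (8.77%), 591 higher in males (4.83%) and 481 lower (3.93%). Of the genes higher in male ribosomal RNA 375 were tested in total RNA, and 184 were also higher there (49.1%). Of the lower genes 286 were tested, and 111 were also lower (38.8%). In the opposite direction 0 were called. The leading genes stood there as follows: Amd1 at 3.15 in ribosomal and 2.66 in total RNA, Slc30a2 at 4.34 and 3.48, Cish at 3.03 and 2.61, Odc1 at 2.07 and 1.59, Actc1 at −1.6 and −1.73, and Gpx3 at −1.35 and −0.87. Of the slow fibre genes Myh7 stood at −1.32 and −0.82 and Tnni1 at −0.77 and −1.04. Myh2 stood at −0.67 in ribosomal RNA and −0.1 in total RNA (adjusted p of the difference 0.288).

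The test of the difference between RNA types passed in 9 of 11254 genes (0.08%). Cdk19 (2.53 in ribosomal and 1.62 in total RNA), Mgst1 (2.5 and 0.92) and Tiam1 (2.01 and 0.85) were among them. So were Serinc3 (1.26 and 0.47), Gabbr1 (1.38 and 0.05) and Tmem234 (1.29 and 0.4), which were chosen after their values were seen. For Gabbr1, a receptor gene for GABA, the male and female ribosomal libraries did not overlap (1.73 to 4.73 and 4.89 to 10.2 CPM). Tmem234 was at a mean of 39.3 CPM in ribosomal RNA of females and 98.7 of males. With each labelled number of a sex as a block edgeR called 0 genes at this test, against 984 at an unadjusted p under 0.05 and 52 by DESeq2 without the block. The labels do not say whether mice of a sex were littermates. The p-values within 1 RNA type rest on the spread between these mice, pooled over controls and labelled knockouts. The test between RNA types without the block takes the libraries of a labelled number as independent, so it does not measure the spread between mice.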

How the data were processed

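The deposited table holds a whole read count per gene for each of 56 libraries, made per the labels with Lexogen QuantSeq, a 3′ method, and 50 bp forward reads. The submitters' processing notes name UMI-tools, STAR, HTSeq, DESeq2 1.40.1, R 4.3.0 and GRCm39. The 5 HTSeq summary lines stayed out of library sizes and tests. Whether counting used strand is not given in the sources used here. Symbols and chromosomes came by identifier from GENCODE tables of GRCm38, with a symbol for 52029 of 57010 genes and 97.6% of counts. The unmatched genes (4.07% of counts of the control ribosomal libraries) and mitochondrial genes were left out of counts with those of the X and Y.

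The tests used edgeR 4.0.16 under R 4.3.3 (filterByExpr, TMM, glmQLFit, glmQLFTest). The SE beside a log2 difference is its absolute value over the square root of the test's F statistic, not an SE reported by edgeR. The 28 ribosomal libraries were fitted with 4 group means, so controls and labelled knockouts share 1 estimate of spread. Total libraries were fitted apart, and RNA types were compared in the 28 control libraries. Adjustment ran over all 9098, 12860 and 11804 genes of these fits. The script was tested on simulated data. Alternatives used RLE factors, no filter, DESeq2 1.42.0, limma 3.58.1 (voom), other sets of libraries, a mitochondrial covariate and the mouse as block.

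The comparison and the 47 gene lists were chosen with earlier results of these data known. Named were, among called genes of at least 5 CPM, the 12 largest rises and falls and the 12 of lowest p in each direction without overlap, then up to 4 members of lowest p per list, Elavl1 and 4 myosin genes; not all of them are reported here. Other genes named were chosen after their values were seen: Slc15a5, Mettl21c, Mettl21e, Cdkn1a, Cdkn1c, Trp53inp2, Fbxo32, Myl2, Ankrd2, Csrp3, Socs2, Ghr, Stat5b, Srm, Paox, Azin1, Oaz1, Oaz2, Eif5a, Hspa8, Hspd1, Hspe1, Chrna1, Chrne, Mstn, Plin1, Adipoq, Serinc3, Gabbr1 and Tmem234.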

Additional observations from a re-analysis of the deposited data

Results flagged for a closer look

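Of 264 groups of 7 libraries (132 genes in each sex) 35 held a library whose distance from the nearest other was large against the range of the group. Chance gives about 1 in 20 groups only where values are independent and normally distributed. The rule was applied to CPM without a log and to selected genes, so the count is not a test against chance. Male control 20 accounted for 15 of them, more than any other library. It was the highest male for Actr3b (169.6 CPM), Hspa5 (674.5), Myh7 (56.5), Myh4 (19500), Fbxo31 (645.2), Slc2a3 (21.4), Chrna9 (5.85), Gdf11 (52.6), Mbnl1 (391.8), Rhpn2 (9.75), Oaz2 (779.7), Hspd1 (132.6), Hspe1 (124.8) and Mstn (555.6), and the lowest for Bcl6 (157.9). Of the other males, control 27 was highest for Mt2 (624.8 CPM), control 21 for Mss51 (376.8) and control 22 for Zfp503 (44.8), while control 22 was lowest for Gadl1 (10.5) and control 25 for Fbxo32 (478.6).

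Among females, control 18 was highest for Fbxo32 (2724 CPM), Glul (658) and Rhpn2 (23.7). Control 19 was highest for Gadl1 (18.4 CPM) and Mettl21c (323), and lowest for Myog (11), Mss51 (58.7), Slc11a2 (3.67) and Chrnb1 (14.7). Control 15 was highest for Smox (169.2 CPM), Gclm (33) and Slc15a5 (0.529, with the other females at 0). Control 16 was highest for Bcat2 (41.6 CPM), and control 21 was highest for Bcl6 (201.1) and lowest for Car3 (2460).

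The sex difference in labelled knockouts minus that in controls, tested in the edgeR fit, was below 0 for genes higher in male controls: Slc2a3 (−2.87), Npnt (−2.06), Odf3l2 (−2.01), Thbs4 (−1.95), Gadl1 (−1.85), Igf1 (−1.75), Gabbr1 (−1.72), Odc1 (−1.67), Gadd45g (−1.29), Igfbp5 (−1.28), Tfrc (−1.11), Cdk19 (−0.902), Mss51 (−0.803), Mettl21c (−0.77), Clcn1 (−0.69), Serinc3 (−0.66) and Pdia6 (−0.66). For genes lower in male controls it was above 0: Gadd45b (1.52), Mylip (1.4), Actc1 (1.11), Gadd45a (0.99), Mybph (0.96), Etfa (0.83), Ugp2 (0.73) and Ctsl (0.71). These genes were named for their difference in the same control libraries, so the direction is not independent of that choice. Csrp3 (−1.67) and Myh1 (−1.21) had not passed in controls.

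The sex difference in ribosomal minus that in total RNA was 1.58 for Mgst1, 1.34 for Gabbr1, 1.17 for Tiam1, 0.92 for Cdk19, 0.89 for Tmem234 and 0.79 for Serinc3.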

How the results depend on the processing

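The 664 genes were 1808 by limma-voom with sample weights (895 higher and 913 lower), 1240 without male control 20 and 495 to 1240 when single libraries were left out, with 481 to 661 of the 664 among them. The 297 genes whose sex difference differed between genotypes were 576 without the filter, 648 by limma-voom and 134 (without female control 15) to 471 (without female control 19) when single libraries were left out. The 9 genes whose sex difference differed between RNA types were 22 without the filter, 52 by DESeq2, 17 with all 56 libraries and 4 to 30 when single libraries were left out, among them 5 (without the total library of female control 18), 23 (without the ribosomal library of female control 15) and 30 (without that of male control 20). For labelled knockouts and for total RNA each count stayed within 1.5 times its main value, at 2457 to 3023 and 856 to 1045 when single libraries were left out. The cause of these shifts was not tested. The sets without female controls 18 and 19 and male control 20 together and without male labelled knockout 2 were chosen after seeing the data.

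With the mouse as replicate block, 0 genes passed the test between RNA types in edgeR (984 at an unadjusted p under 0.05). Same-numbered ribosomal and total libraries had a mean correlation of deviations of 0.0633 in females and −0.277 in males, and 2 of 7 and 1 of 7 correlated best with their own number, so the numbers do not show a pairing.

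Of 132 genes named, 107 were called, 85 of them under each alternative run (24, or 22 for Dnase1, Cyp4f39, Chrna9, Slc15a5 and Gabbr1), and 22 lost the call at least once. The alternatives hold the run without male control 20 both as a planned exclusion and as a single-library omission. Cdkn1c and Trp53inp2 are not counted among the 132. No called gene of the 132 changed direction. The 6 genes that did had not passed and lay near 0. With the mitochondrial covariate Socs2 stood at −0.0484, Hspd1 at 0.0145, Hspe1 at 0.0169 and Mstn at 0.139. Without female controls 18 and 19 Oaz1 stood at 0.0263, Socs2 at −0.109, Hspd1 at 0.0829 and Mstn at 0.481, and without male control 20 as well Socs2 stood at −0.0438 and Mstn at 0.0762. Without libraries under 750000 counts Socs2 stood at −0.048 and Mstn at 0.0766. Oaz2 stood at −0.0279 by limma-voom and −0.0899 without male control 20. When single libraries were left out the ranges were −0.11 to 0.533 for Socs2, −0.622 to 0.0664 for Mstn, −0.0899 to 0.208 for Oaz2 and −0.179 to 0.0329 for Hspe1.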
